A study of Drosophila melanogaster with 12 samples.

Results

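The expression profile of the normal late larval eye disc of Drosophila melanogaster was read from the 3 arrays of Canton S, a standard wild-type strain, of 12 arrays in all. The members were taken by their genotype label. The other 9 arrays came from 3 mutant genotypes with 3 arrays each: rbf120a, which is mutant for Rbf, the fly retinoblastoma gene; wtsX1Lats, which is mutant for warts (wts), a kinase gene of the Hippo pathway also called Lats; and rbf120a wtsX1Lats, which is mutant for both. Total RNA came from eye discs at the late (L3) larval stage in every group. Per the design text, the mutant discs were mosaics made mostly of mutant tissue, and no source used here gives the way the clones were made. The labels call the replicates biological but give no number of animals or discs, so the spread among arrays covers these samples alone.

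The eye disc is an epithelium that grows through the larval stages and is joined to the antennal disc. In the late larva a wave of differentiation, the morphogenetic furrow, crosses it from the posterior. Ahead of the furrow, cells divide and express retinal determination factors such as ey and Optix. Behind it, cells are recruited one after another into ommatidial clusters, with gl acting in all photoreceptor precursors and the receptor kinase sev acting in the choice of the R7 fate. Rhodopsins, light-gated signalling and eye pigment are used much later, in the pupa and adult.

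The 4 marker genes given for the disc were above background in all 3 arrays. The zinc finger gene gl was at 10.56, 11.09 and 10.66 on the log2 scale in replicates 1, 2 and 3 (mean 10.77 ± 0.28, SD, n = 3). sev was at 9.18, 8.61 and 9.22 (9.01 ± 0.34), the Pax6 gene ey at 9.66, 9.49 and 9.55 (9.57 ± 0.09) and the homeobox gene Optix at 10.56, 10.24 and 10.41 (10.41 ± 0.16). Their signals exceeded or equalled those of 89.1%, 66.1%, 74.2% and 85.6% of all genes, in the same order. All 4 lay in the middling band, as defined next, and markers of other tissues are given beside the lists they belong to.

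Signals of 11981 genes were ranked, each by 1 probe set. Gene means ran from 3.62 to 14.42 with a median of 7.46. The distribution had 2 humps: 2854 genes lay between 4 and 5 and 1932 between 5 and 6, 800 lay between 6 and 7, and 1731 lay between 9 and 10. Chemosensory receptor genes, which have little known use in the larval eye disc, filled the lower hump, and the 95th percentile of the means of 165 of them, 5.49, was used as the ceiling of background. By this ceiling 4126 genes (34.4%) were near background. The top 10% of genes, 1199 genes at or above 10.87, are called high here, and the 6656 between (55.6%) middling.

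**Figure D1:**
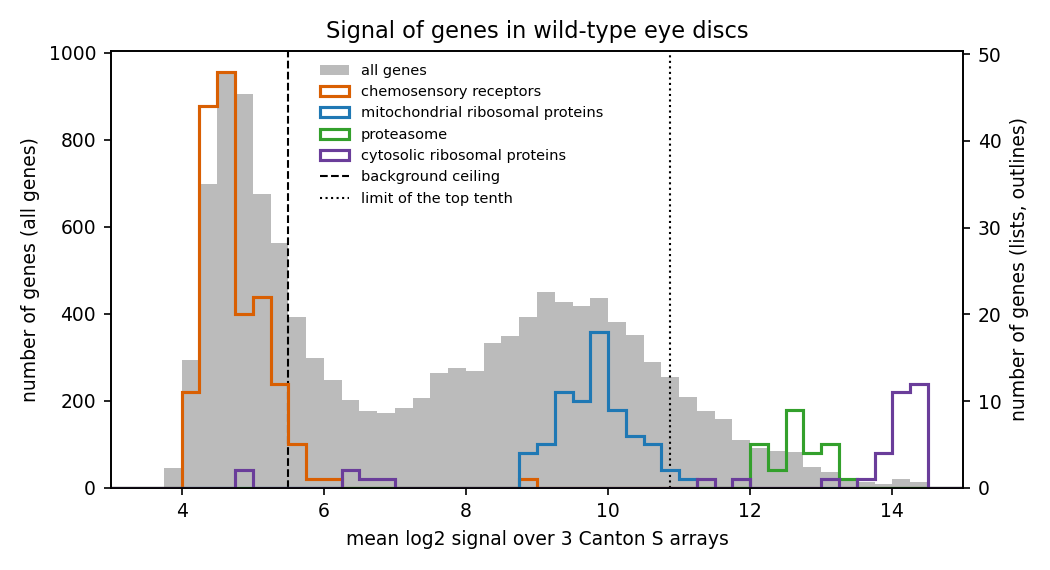
Number of genes by mean log2 signal over the 3 Canton S arrays, in bins of 0.25, with all 11981 genes as grey bars (left axis) and 4 gene lists as outlines (right axis). The dashed line is the background ceiling at 5.49 and the dotted line the limit of the top 10% at 10.87; chemosensory receptors fill the lower hump, mitochondrial ribosomal proteins the upper one, and proteasome and most cytosolic ribosomal protein genes the right-hand tail.

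A probe set's signal depends on its probes as well as on its RNA, so the order given here is an order of signals and no fold between genes is given. In 1094 genes with several probe sets, the highest and the lowest differed by a median of 1.38 (upper quartile 3.20), and in 378 of them (34.6%) they fell on different sides of the ceiling. The bands were stable from array to array: 1072 of the high genes were high in every array and 3789 of the genes near background were at or below the ceiling in every array. Counted over all genes, whatever their band, 624 had arrays on both sides of the ceiling. At the limits, CG17032 and rin (both 10.87) were the last genes inside the high band and ebi and CG10565 (both 10.87) the first outside it. CG14105 and CG31115 (both 5.49) lay just above the ceiling and CG30116 and CG4194 (both 5.49) just at or below it. By rule, the genes named come from the 4 highest and 2 lowest members of each of 52 gene lists, not all of which are printed, from the marker genes and from the most variable genes with a name of their own. Any other member was chosen after its values were seen.

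Protein synthesis led the profile. Of the 20 highest genes with a name of their own, 18 encode ribosomal proteins, led by RpL41 at 14.37, 14.40 and 14.50 in the 3 arrays, then RpLP1 (14.40 ± 0.01, SD, n = 3), RpL23 (14.37 ± 0.03) and RpL15 (14.36 ± 0.03). The other two were the constitutive chaperone gene Hsc70-4 (14.30 ± 0.01) and tsr (14.20 ± 0.03), which encodes cofilin. Of 37 measured cytosolic ribosomal protein genes 31 were high, with a list median of 14.15. The lowest were paralogs of a main gene: RpL10Aa (4.83 ± 0.10) and RpS10a (4.91 ± 0.05) were near background. The translation factors had 26 of 33 members high, among them eEF5 (14.06 ± 0.01), eEF1gamma (13.85 ± 0.05), eIF4A (13.77 ± 0.04) and eIF3i (12.96 ± 0.03), while 4 alternative cap-binding factor genes of the eIF4E family were near background, eIF4E7 (4.34 ± 0.12) and eIF4E5 (4.29 ± 0.04) being the lowest. In the ribosome biogenesis list 11 of 18 genes were high. At the top were mod (12.74 ± 0.03), Nap1 (12.49 ± 0.06), Nop60B (12.27 ± 0.04) and Nop56 (12.05 ± 0.05), of which Nap1 is a nucleosome assembly gene. At the bottom were nclb (6.65 ± 0.27) and Ns2 (6.02 ± 0.22).

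The proteasome was the only one of the 52 lists whose measured members were all high. Its 26 genes ranged upward from the regulatory particle genes Rpn1 and Rpn8 (12.12 ± 0.03), the lowest, to the core subunit gene Prosbeta3 (13.26 ± 0.08). Prosalpha2 (13.18 ± 0.03), Prosbeta5 (13.16 ± 0.09) and Prosbeta7 (13.11 ± 0.06) came next below it. Of 14 paralogs of proteasome genes known mainly from the testis, 11 were near background and 0 were high: Prosbeta2R2 was at 4.53 ± 0.09 and Prosbeta5R1 at 4.42 ± 0.07, and the highest were Rpt3R (7.45 ± 0.38) and Rpn13R (5.92 ± 0.09). The same arrays thus held the general subunits in the top band and most of their testis-type copies among the dimmest genes. Chaperones were high in 17 of 23 cases, with Hsp27 (14.01 ± 0.14), the endoplasmic reticulum chaperone Hsc70-3 (13.27 ± 0.26) and the chaperonin subunit CCT5 (12.88 ± 0.06) after Hsc70-4, and Hsc70-2 (4.55 ± 0.11) and Hsp60C (4.39 ± 0.02) at the bottom.

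Nuclear genes of oxidative phosphorylation were high in 38 of 62 cases. ATPsynbeta (13.51 ± 0.04), ATPsynF (13.27 ± 0.07), blw (13.27 ± 0.05) and ATPsynC (13.27 ± 0.03), which all encode ATP synthase subunits, were at the top. The 7 members near background included ATPsynCF6L (4.76 ± 0.04), a paralog, and ND-B8 (4.21 ± 0.07), a complex I subunit gene for which other members of the complex were high. Mitochondrial ribosomal proteins formed a narrow middling group: 69 of 71 were middling and 0 near background, from mRpS28 (8.78 ± 0.04) and mRpL40 (8.88 ± 0.08) to mRpS5 (10.99 ± 0.18) and mRpL33, the highest. Of 13 glycolysis genes 5 were high, namely Eno (12.65 ± 0.06), Gapdh1 (12.63 ± 0.08), Tpi (12.32 ± 0.09), Pgk (11.72 ± 0.14) and Ald1 (11.45 ± 0.41). Hex-t2 (4.77 ± 0.16) and Pglym87 (4.73 ± 0.08) were near background. In the cytoskeleton list betaTub56D (14.06 ± 0.03), cib (13.61 ± 0.17) and Moe (13.40 ± 0.06) followed tsr, and the testis tubulin betaTub85D (4.53 ± 0.11) was the lowest. Chromatin genes were high in 8 of 12 cases, including the histone variant His2Av (13.17 ± 0.04), D1 (13.04 ± 0.11) and Caf1-55 (12.46 ± 0.09). The Polycomb gene Pc (8.57 ± 0.12) was middling and the embryonic linker histone BigH1 (4.66 ± 0.08) near background.

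**Figure D2:**
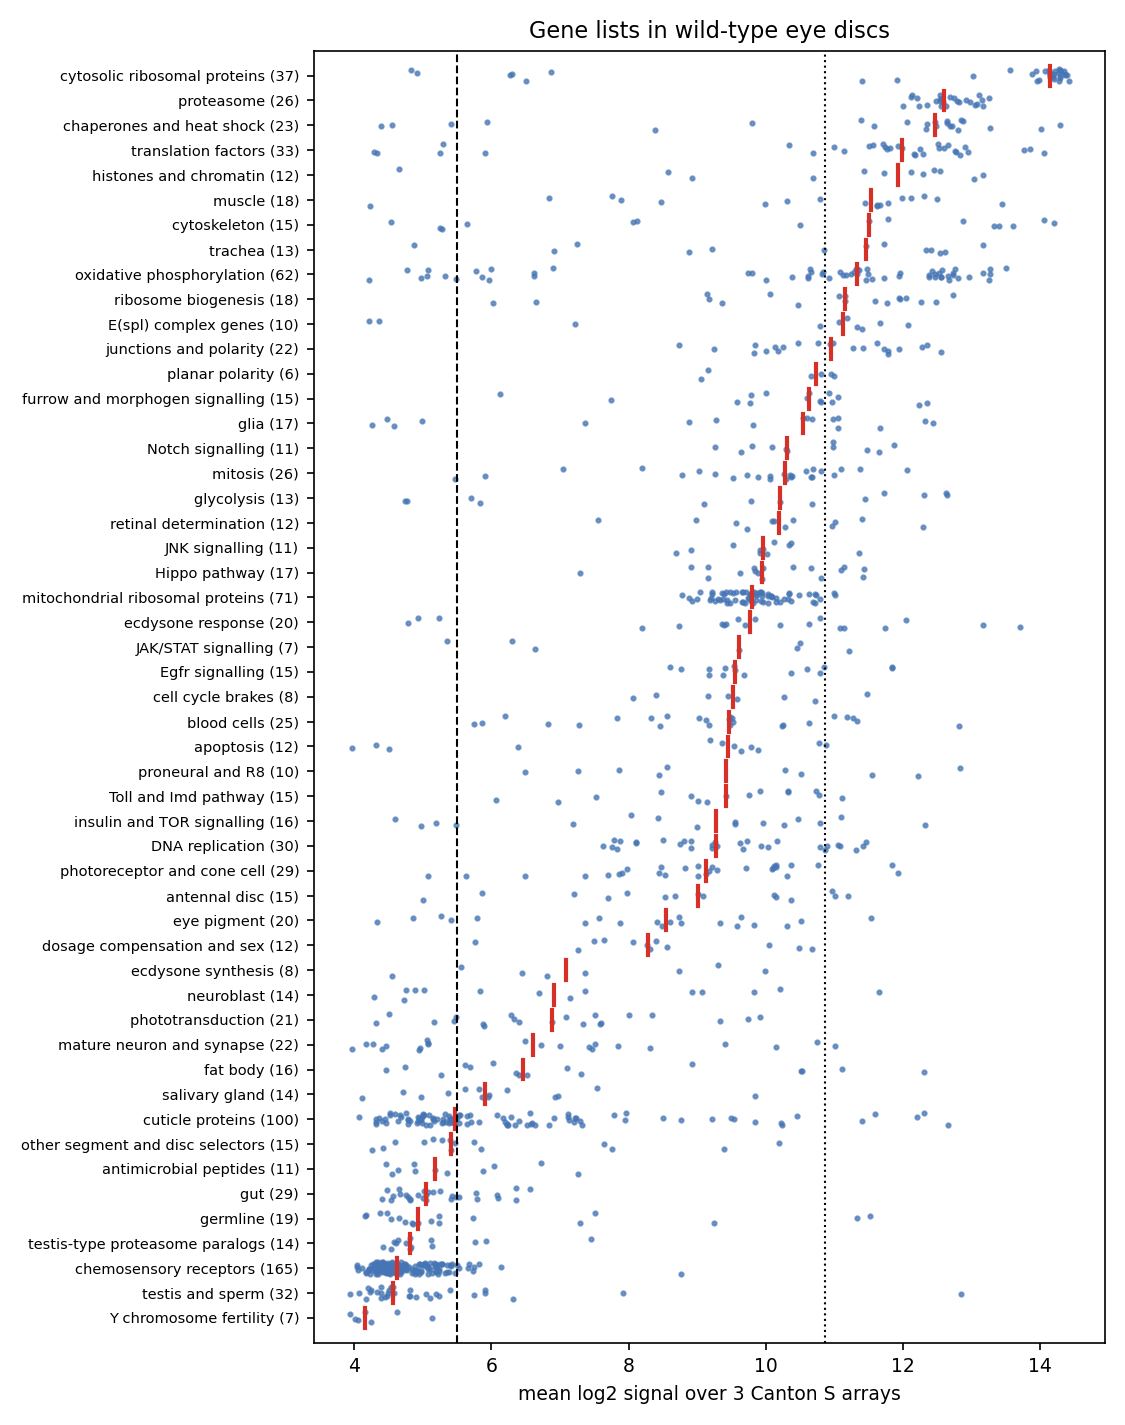
Mean log2 signal over the 3 Canton S arrays for each measured member (blue points) of 51 gene lists, with the list median as a red bar and the number of members in parentheses; lists are sorted by median, and points are spread vertically so that they can be seen. The dashed and dotted lines are the background ceiling (5.49) and the limit of the top 10% (10.87); lists of basic cell functions lie at the top, eye development and signalling lists in the middle, and lists of gut, germline, testis and chemosensory genes at the bottom.

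Cell division genes were present at middling signals. The 30 measured DNA replication genes had a median of 9.28, with 6 high and 0 near background. PCNA, the sliding clamp, was at 11.49, 11.42 and 11.47, and RPA1 (11.42 ± 0.16), Mcm6 (11.32 ± 0.07) and RnrL (11.09 ± 0.04) followed. The primase subunit gene Prim2 (7.62 ± 0.26) was lowest. Of 26 mitosis genes 4 were high, namely Bub3 (12.06 ± 0.04), CycB (11.37 ± 0.15), feo (11.09 ± 0.10) and borr. The female meiosis kinesin gene sub (5.47 ± 0.17) was the only member near background, and the meiotic Cdc25 gene twe (5.91 ± 0.67) lay close to the ceiling. Among 8 genes that restrain the cycle, the ubiquitin ligase gene ago was high (11.49 ± 0.09), Dp (10.71 ± 0.16), E2f2 (10.26 ± 0.08), fzr (9.58 ± 0.11) and Rbf (9.45 ± 0.12) were middling, and rux (8.39 ± 0.15) and Rbf2 (8.07 ± 0.29) were lowest.

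All 12 measured retinal determination genes were above background, 4 of them high. The Pax6 gene toy was the highest, at 12.27, 12.35 and 12.28, although its 3 probe sets ran from 5.91 to 12.30. The phosphatase and co-activator gene eya was at 11.33, 11.53 and 11.34. danr (11.02 ± 0.22) and dac (10.97 ± 0.29), a nuclear factor of the same network, completed the high members. The middling ones included Optix, the homeobox gene so (10.09 ± 0.04), the zinc finger gene tsh (9.73 ± 0.03), ey, the Pax gene eyg (8.99 ± 0.10) and tio (7.56 ± 0.66), a paralog of tsh. The median SD of this list was 0.09, against 0.13 over all genes. tio varied most, at 7.47, 8.26 and 6.94, and dac, danr and Optix (SDs of 0.29, 0.22 and 0.16) were also above the median of all genes.

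The measured genes of the furrow and of its proneural step were also all above the background ceiling of 5.49. Of 15 measured morphogen signalling genes 5 were high: the Hedgehog effector gene ci (12.35 ± 0.19), the BMP receptor genes tkv (12.24 ± 0.05) and put (11.06 ± 0.08), cos (10.96 ± 0.05) and dlp (10.93 ± 0.20). The ligand genes were middling, with hh at 9.52, 9.72 and 9.52 and dpp at 9.66, 10.28 and 9.42. The Hedgehog receptor gene ptc (7.75 ± 0.52) and the Smad gene Med (6.13 ± 0.03) were the lowest. The proneural gene ato, which selects the founding R8 photoreceptor, was at 10.24, 10.33 and 10.29. Its helix-loop-helix antagonists and partner were in the high band: emc (12.83 ± 0.07) and da (11.55 ± 0.12) varied little, and hry was at 12.12, 12.72 and 11.84. Brd followed at 10.52 ± 0.18. Genes used in R8 and its neighbours after that choice were middling, with sens at 8.44 ± 0.17, ro at 7.85 ± 0.31, rno at 7.26 ± 0.10 and boss, the ligand of sev, at 6.49 ± 0.13.

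**Figure D3:**
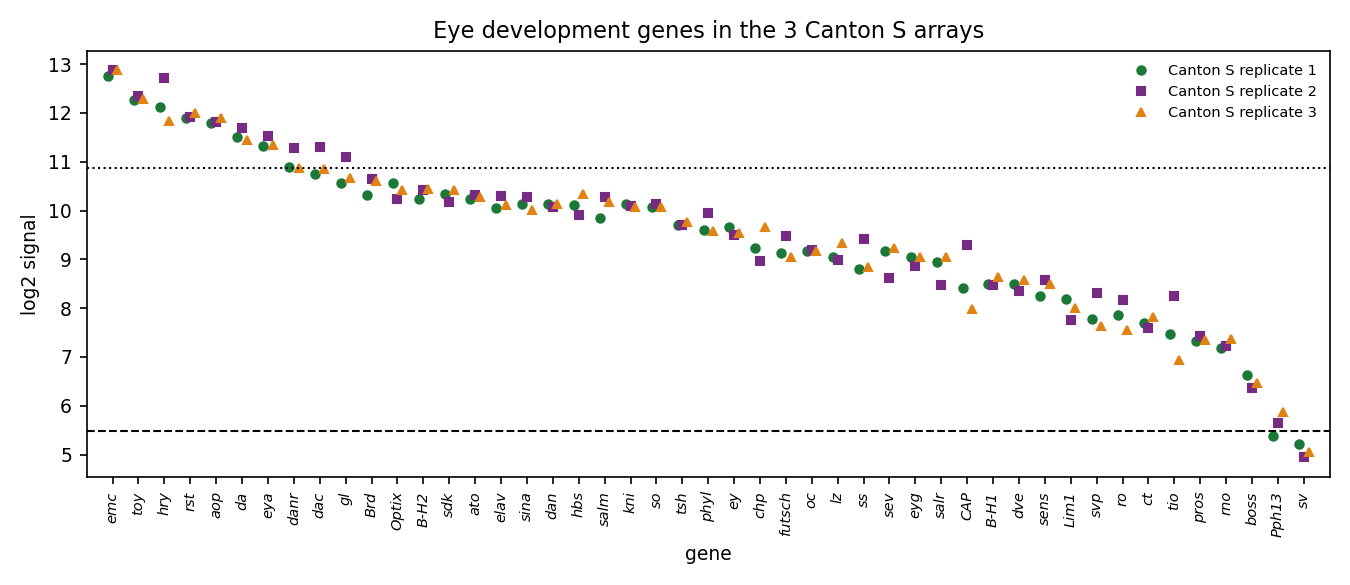
Log2 signal in each Canton S array of the measured members of the retinal determination, proneural and R8, and photoreceptor and cone cell lists, sorted by mean, with 1 symbol per replicate. The dashed and dotted lines are the background ceiling (5.49) and the limit of the top 10% (10.87); emc, toy and hry are at the left, sv and Pph13 at the right, and the 3 arrays lie close together for most genes.

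Photoreceptor and cone cell genes lay mostly in the middling band. Of 29 measured members 2 were high, the cell adhesion gene rst (11.94 ± 0.06) and the Ets repressor gene aop (11.84 ± 0.05), 26 were middling and 1 was near background. gl and B-H2 (10.37 ± 0.11) came next, and the neuronal RNA-binding gene elav was at 10.04, 10.31 and 10.11. The lowest were Pph13 (5.63 ± 0.25), a homeobox gene of photoreceptor maturation, and sv (5.07 ± 0.13), the Pax2 gene of cone and pigment cells. Pph13 was at 5.37, 5.65 and 5.87, on both sides of the ceiling.

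No measured phototransduction gene was high. The rhodopsin genes ninaE, Rh2, Rh3, Rh4, Rh5 and Rh6 were not among those measured, nor were ninaA, ninaC and norpA. The values thus do not show the level of these genes. Of 21 measured, 16 were middling and 5 near background, with a median of 6.88. The top 4 were Cds (9.92 ± 0.26), an enzyme of phospholipid recycling, the arrestin gene Arr1 (9.75 ± 0.55), Galphaq (9.33 ± 0.31) and rdgA (8.34 ± 0.08). Arr1 was at 9.88, 10.22 and 9.15. The light-gated channel gene trp was at 4.28, 4.08 and 4.57, and laza at 4.50 ± 0.17. Of 20 eye pigment genes, the 4 highest act in vesicle trafficking or acidification in many cells: VhaAC39-1 (11.53 ± 0.10), lt (10.51 ± 0.20), rb (10.31 ± 0.11) and g (9.83 ± 0.09). The lowest were the transporter gene bw (4.85 ± 0.08) and the enzyme gene cn (4.33 ± 0.12), 2 of the 4 members near background. Other pigment enzyme genes were middling, such as Pu (8.48 ± 0.64), kar (8.41 ± 0.30) and ry (7.36 ± 0.34).

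Signalling pathways were nearly all above background at the level of receptors, transducers and nuclear factors. In the Egfr pathway, which recruits photoreceptors after R8, 15 of 15 measured genes were above background and 2 were high, the ligand gene spi (11.85 ± 0.07) and aop, with the adaptor drk (10.85 ± 0.13) and Cbl (10.79 ± 0.07) next. The receptor gene Egfr was at 10.37 ± 0.31, and the ligand gene Krn (8.77 ± 0.07) and ksr (8.61 ± 0.06) were lowest. Of 11 Notch pathway genes 5 were high, including fng (11.87 ± 0.10), numb (11.65 ± 0.10), O-fut1 (11.48 ± 0.14) and Psn (10.99 ± 0.12); kuz (9.80 ± 0.23), pen-2 (9.64 ± 0.06) and neur (9.26 ± 0.39) were lower. In the E(spl) complex, whose genes respond to Notch, 6 of 10 were high, led by E(spl)malpha-BFM (12.07 ± 0.10), E(spl)mbeta-HLH (11.66 ± 0.07), E(spl)mdelta-HLH (11.40 ± 0.11) and E(spl)m4-BFM (11.33 ± 0.09). Within the same complex, E(spl)m6-BFM (4.21 ± 0.08) and Kaz-m1 (4.36 ± 0.17) were near background.

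The Hippo pathway, which limits growth, had 17 of 17 measured genes above background and 4 high: dco (11.43 ± 0.05), crb (11.42 ± 0.10), Zyx (11.14 ± 0.08) and hpo (11.10 ± 0.10). The co-activator gene yki was at 10.41 ± 0.10 and wts at 9.95 ± 0.10, while Pez (8.91 ± 0.14) and kibra (7.29 ± 0.15) were lowest. In the JAK/STAT list the factor Stat92E was high (11.22 ± 0.14) and the receptor gene dome middling (10.46 ± 0.07), whereas the ligand genes upd1 (6.64 ± 0.20) and upd2 (6.31 ± 0.21) were low and the negative receptor gene et (5.35 ± 0.20) was near background. All 11 JNK genes were above background, from hep (8.69 ± 0.11) to bsk (11.36 ± 0.06). In insulin and TOR signalling, ImpL2, a secreted insulin-binding protein, was at 12.32 ± 0.27 and Akt at 11.10 ± 0.36, and the 4 members near background were all insulin-like peptide genes: Ilp2 (5.49 ± 0.17), Ilp8 (5.19 ± 0.18), Ilp5 (4.98 ± 0.05) and Ilp7 (4.60 ± 0.11). A similar division held in immunity: 15 of 15 Toll and Imd pathway genes were above background, with cact (11.11 ± 0.16) the highest and Dif (6.07 ± 0.06) the lowest, and 7 of 11 antimicrobial peptide genes were near background, with Mtk at 4.47 ± 0.10 and CecB the highest at 7.27 ± 0.36. In the apoptosis list, the initiator caspase gene Dronc was high (10.89 ± 0.38), Dredd (10.78 ± 0.07), Dcp-1 (9.89 ± 0.15) and Diap2 (9.78 ± 0.13) middling, and the death inducer genes skl (4.32 ± 0.06) and grim (3.97 ± 0.14) near background. The death inducer genes rpr and hid were not among those measured, nor were Diap1 and Drice, so the values do not show their levels.

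Ecdysone, the steroid that drives moulting and pupariation, has a response list whose members spanned all 3 bands. The early response gene br was at 13.07, 13.12 and 13.32 (its 5 probe sets ran from 10.05 to 13.17), and 3 genes first found as ecdysone-inducible in imaginal discs were also high: ImpE2 (13.72 ± 0.31), ImpE1 (12.04 ± 0.42) and ImpE3 (11.74 ± 0.66). The receptor gene EcR was middling, at 9.27, 10.37 and 9.16, and its partner usp was at 9.40 ± 0.05. Genes known for later steps of the cascade, Hr3 (4.93 ± 0.19) and Eip93F (4.78 ± 0.25), were near background, and ftz-f1 was at 8.19 ± 0.52. The ecdysone synthesis list had 7 of 8 members above background, among them shd (5.56 ± 0.11) and the inactivating enzyme gene Cyp18a1 (7.37 ± 0.03), which are known from tissues outside the prothoracic gland. Of the genes known from that gland, spok was at 10.35, 11.28 and 8.35, sad at 9.89, 9.46 and 8.55, and sro at 8.80, 8.98 and 8.41. The embryonic paralog spo (4.56 ± 0.03) was near background. The tissue these signals came from was not tested.

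Epithelial and glial genes were among the brighter tissue-specific lists. All 22 junction and polarity genes were above background and 12 were high, led by the septate junction genes pck (12.56 ± 0.02), sinu (12.35 ± 0.03), Cont (12.28 ± 0.05) and Nrx-IV (11.94 ± 0.19), with Patj (9.25 ± 0.11) and baz (8.74 ± 0.22) lowest. In planar polarity, Vang and stan (10.96 ± 0.16) were high and dgo (9.05 ± 0.05) lowest of 6. Glial cells enter the eye disc along the optic stalk. The glial identity gene repo was at 9.29, 9.36 and 9.17, moody at 9.81 ± 0.11, and Gli (12.45 ± 0.11), bnb (12.32 ± 0.08), Gs2 (11.68 ± 0.22) and Swim (11.06 ± 0.34) were the highest of 17 listed genes, some of which epithelia use too. The glial gene wrapper (4.58 ± 0.11), the astrocyte gene alrm (4.26 ± 0.12) and the embryonic gene gcm2 (4.48 ± 0.20) were near background.

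Of 22 genes of mature neurons, 1 was high, 11 were middling and 10 were near background, the last including Hdc (4.17 ± 0.12), the histamine synthesis enzyme of photoreceptors, and ple (3.97 ± 0.26), and the highest were Csp (11.01 ± 0.09), Appl (10.75 ± 0.08), elav and unc-104 (9.40 ± 0.08). The synapse genes brp (7.42 ± 0.39) and nSyb (7.47 ± 0.23) were at low middling signals. Of the neuroblast markers, dpn was at 8.92 ± 0.42, ase at 5.84 ± 0.26 and wor at 4.72 ± 0.07, so that the last lay below the ceiling; numb and esg (10.22 ± 0.10) led the list and erm (4.28 ± 0.09) ended it. Markers of the joined antennal disc were present, with Dll at 10.09, 10.29 and 10.08 (its 3 probe sets ran from 7.08 to 10.15) and al at 9.09 ± 0.02, while the olfactory proneural gene amos (5.01 ± 0.28) was near background. bab2 (11.21 ± 0.16) was the highest of that list. Selector genes of other segments and discs had a median of 5.40: 9 of 15 were near background, including Antp (4.42 ± 0.10) and Kr (4.26 ± 0.24), and en (10.20 ± 0.19), Dfd (9.40 ± 0.08), twi (7.75 ± 0.28) and Scr (7.64 ± 0.12) were highest. Dfd is known from the head segments and the peripodial side of the disc.

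Several lists of other tissues were above background. In bulk tissue, fewer cells of a type and less RNA per cell cannot be told apart. The muscle list had 10 of 18 genes high, such as Argk1 (13.44 ± 0.12), Mlc1 (12.50 ± 0.61), TpnC73F (12.31 ± 0.07) and Tm2 (12.12 ± 0.50), while TpnC41C (4.23 ± 0.11) was near background. The blood cell list had 5 high and 0 near background of 25; its top members, Fer2LCH (12.82 ± 0.05) and the laminin genes LanA (11.33 ± 0.08), LanB1 (11.28 ± 0.12) and LanB2 (11.19 ± 0.26), are widely expressed. Several defining markers were lower, with Hml at 9.34, 10.02 and 9.02, eater at 8.56, 8.98 and 8.13, srp at 7.01, 7.34 and 6.14 and NimC1 at 5.87 ± 0.01. PPO2 was brighter than these and varied more, at 11.17, 11.28 and 9.43 (10.63 ± 1.03). The tracheal list had 7 of 13 high, led by the apical matrix and chitin genes Gasp (13.17 ± 0.07), obst-A (12.61 ± 0.09), pio (12.54 ± 0.24) and verm (12.42 ± 0.38), while the tracheal receptor gene btl was at 6.91 ± 0.18.

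Lists of larval fat body, salivary gland and gut had lower medians (6.46, 5.90 and 5.04). In the fat body list Tsf1 (12.31 ± 0.75), Obp44a (11.11 ± 0.13), Sirup (10.53 ± 0.19) and FASN1 (10.52 ± 0.26) were highest of 16, the larval serum protein gene Lsp2 was at 6.41 ± 0.75, and apolpp (4.74 ± 0.11) and Yp1 (4.46 ± 0.19) were near background. The salivary list had 0 of 14 high, with Sgs3 at 5.37 ± 0.52 and ng1 at 4.11 ± 0.12. Of 29 gut genes 21 were near background and epsilonTry (6.56 ± 0.23) was the highest. Of 32 testis and sperm genes 26 were near background, the lowest being Mst87F (4.07 ± 0.14) and djl (3.93 ± 0.01), and the only high member was Pen (12.84 ± 0.14), an importin gene used in many tissues. Of 19 germline genes 13 were near background, with tud (11.52 ± 0.06) and ovo (11.33 ± 0.13) high and orb (4.17 ± 0.09) and otu (4.16 ± 0.0038) lowest. All 7 fertility genes of the Y chromosome were near background, from ORY (3.94 ± 0.06) to Pp1-Y2 (5.14 ± 0.10). All 12 genes of sex determination and dosage compensation were middling, with tra2 (10.68 ± 0.08), Sxl (10.48 ± 0.21) and tra (10.05 ± 0.23) highest and her (5.76 ± 0.36) lowest.

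Large secreted protein families had members in all 3 bands. Of 100 cuticle protein genes 5 were high, 45 middling and 50 near background; Cpr49Ac (12.65 ± 0.60), Cpr47Eb (12.31 ± 0.82), Cpr12A (12.21 ± 0.26) and Pcp (11.60 ± 0.29) led, and TwdlB (4.32 ± 0.06) and Cpr50Ca (4.06 ± 0.10) were lowest. Of 60 odorant-binding protein and yellow family genes 5 were high, 27 middling and 28 near background, with Obp56a at 13.73, 13.97 and 13.14, then Obp56d (12.65 ± 0.98), Obp99a (11.78 ± 0.19) and Obp44a, and with Obp22a (4.31 ± 0.12) and Obp57e (4.13 ± 0.06) at the bottom. Odorant-binding proteins are known from olfactory organs and also from other epithelia and secretions. Among the 165 chemosensory receptor genes, which set the ceiling, the ionotropic receptor gene Ir76a stood out, at 8.77 ± 0.20; the next was Ir68a at 6.14 ± 0.12. Outside the lists, the highest genes included the peptidase gene Ance (14.02 ± 0.02), the detoxification gene GstD1 (13.76 ± 0.04) and 2 noncoding RNA genes of the high band, of which lncRNA:CR33938 (14.06 ± 0.03) was the brighter.

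Bands differed in features that the ranking did not use. Genes with a name of their own, beyond a number, made up 82.2% of the high band, 60.9% of the middling and 39.6% of those near background. The median span of the gene on the chromosome was 2956 bases in the high band, 2770 in the middling and 1611.5 near background. Chromosome 4, a small and largely heterochromatic chromosome, had 17 of 65 genes high (26.2%) and 11 near background (16.9%), against 10.2% and 35.1% of the 9949 genes on the other autosomes. Its high genes included ATPsynbeta, ci, toy and Zyx, already given, and eIF4G1 (12.18). The X chromosome, with 1873 genes, had 8.97% high and 29.6% near background, and its median signal was 7.85 against 7.38 on the major autosomes. These shares were not tested, since genes are not independent replicates.

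The 3 arrays agreed closely in signal and differed in a few sets of genes. Pearson correlations across genes lay between 0.986 and 0.995, and the median SD of a gene was 0.13. It was smaller in the high band (0.10) and near background (0.11) than in the middling band (0.15). An SD above 1 was found in 76 genes (0.634%); 58 of them were highest in replicate 2 and 57 were lowest in replicate 3. Of all genes, 27.0%, 36.4% and 36.6% were highest in replicates 1, 2 and 3, and 19.8%, 45.1% and 35.1% lowest. CG14265 (5.06, 4.87 and 10.93), CG12310 (5.28, 5.49 and 10.85) and CG13460 (6.73, 6.10 and 11.53), singled out after their values were seen, had the largest SDs of all genes above background and lay well above their other arrays in replicate 3. In the mutant genotypes the SDs of these genes ran from 3.06 to 4.81. Among genes above background with a name of their own, the most variable was PGRP-SB2, a peptidoglycan recognition protein gene, at 4.94, 4.72 and 8.72. Obp28a (6.90, 10.33 and 6.32), Cpr100A (8.01, 10.07 and 5.76), Cpr11B (9.77, 11.34 and 7.39), Jhbp3 (7.83, 8.86 and 5.42), Obp56e (10.55, 11.52 and 8.31) and Cpr65Au (6.01, 8.11 and 5.07) were all highest in replicate 2. Bbd (9.57, 9.81 and 6.90) and spok were low in replicate 3, and Sgs7 was high in it.

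Lists of other tissues moved by array. Muscle genes were higher in replicate 2, with list means of 10.20, 10.91 and 10.02 in replicates 1, 2 and 3 and 15 of 18 members highest in replicate 2. The myosin light chain gene Mlc1 was at 12.28, 13.19 and 12.03, and Mlc2 at 9.86, 11.17 and 8.93. Salivary gland genes were higher in replicate 3, with means of 5.83, 5.84 and 6.74 and 12 of 14 members highest there; Sgs7, a glue protein gene, was at 6.13, 5.88 and 8.89. The ecdysone synthesis list had means of 7.54, 7.66 and 6.84, and Akh, the adipokinetic hormone gene of the corpora cardiaca, was at 7.90, 8.52 and 5.98. The neurotransmission gene Snap25 was at 7.03, 9.09 and 6.40. DNA replication genes also differed slightly, with 25 of 30 members highest in replicate 2 and 27 lowest in replicate 3, and list means of 9.45, 9.63 and 9.32. Proteasome genes differed less, with means of 12.74, 12.64 and 12.62 and 21 of 26 members highest in replicate 1. Such spread was not particular to Canton S. Muscle list means ran from 9.69 to 11.14 among the wtsX1Lats arrays, though only from 10.59 to 10.66 in rbf120a and 9.94 to 10.26 in rbf120a wtsX1Lats. Salivary gland means ran from 5.81 to 7.54 in rbf120a, 5.86 to 6.67 in wtsX1Lats and 5.78 to 6.97 in rbf120a wtsX1Lats. Differences in dissection, stage or animals among the arrays were not tested, and the labels give none.

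**Figure D4:**
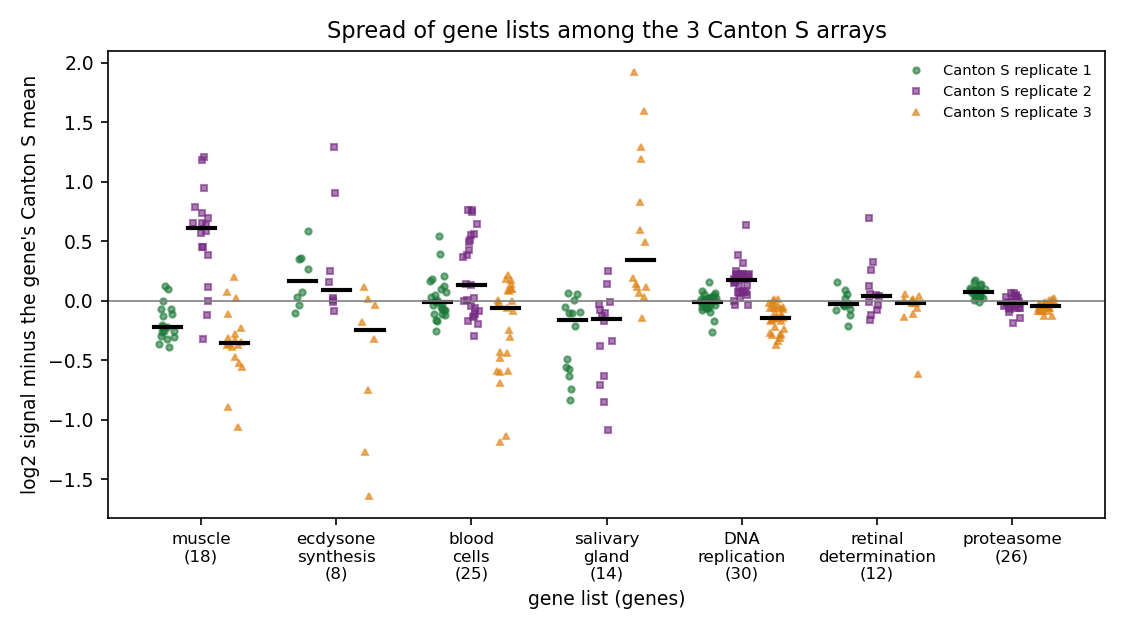
Log2 signal of each member minus its mean over the 3 Canton S arrays, for 7 gene lists chosen after the values were seen, with 1 colour and symbol per replicate and the list median of each replicate as a black bar. Most muscle genes lie above 0 in replicate 2, most salivary gland genes above 0 in replicate 3 and some ecdysone synthesis genes below 0 in replicate 3. The list medians of retinal determination and proteasome genes stay near 0, although single members such as tio lie further away.

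To see where the wild-type profile differed from the rest of the series, Canton S was compared with the mean of the 3 mutant group means by limma with Benjamini-Hochberg adjustment over all genes. Of 11981 genes, 807 (6.74%) passed an adjusted p of 0.05, of which 438 (3.66%) were higher in Canton S and 369 (3.08%) lower, and 212 differed by at least 1. The median difference of all genes was -0.01. Groups did not overlap in 862 genes (7.19%). By band, 3.50% of the high, 5.36% of the middling and 0.945% of the genes near background were higher in Canton S, and 2.42%, 4.30% and 1.31% lower. An effect of the mutations cannot be told apart from a difference between strains or preparations. The number of calls depended on single arrays, from 392 without Canton S replicate 1 to 1281 without wtsX1Lats replicate 3, an array in which 3' control probe sets exceeded 5' ones by 1.70 to 1.90, against 0.32 to 1.43 in the other 11 arrays.

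Of the 4 disc markers, gl and sev were higher in wild-type discs and Optix and ey lower. gl was at 10.56, 11.09 and 10.66 in Canton S and between 8.59 and 10.49 in the 9 mutant arrays (median 9.57), with no overlap, and the difference was 1.20 ± 0.21 (SE; adjusted p = 0.00485). sev ran from 7.14 to 8.40 in the mutants (median 7.72), again with no overlap (1.23 ± 0.16, adjusted p = 0.00059). Of the mutants, rbf120a lay closest to Canton S, with gl at 9.98, 9.96 and 10.49 and sev at 8.28, 8.40 and 8.39. Optix overlapped with the mutants, which ran from 10.30 to 11.23 (median 10.97), and was lower by a difference of -0.47 ± 0.09 (adjusted p = 0.00778). For ey the mutants ran from 9.49 to 10.62 (median 9.85); its difference of -0.43 ± 0.11 passed (adjusted p = 0.0319) but not without Canton S replicate 2 (adjusted p = 0.122). Against rbf120a alone, Optix differed by -0.04 (adjusted p = 0.94) and ey by -0.05 (adjusted p = 0.924). In the whole retinal determination list 1 of 12 genes was higher, dan (0.45, adjusted p = 0.0177, rising to 0.0996 when Canton S replicate 1 was left out), while 2 were lower, Optix and ey, with a median difference of 0.19. toy differed by -0.11 (adjusted p = 0.788), tsh by -0.12 (adjusted p = 0.653) and eyg by 0.04 (adjusted p = 0.918).

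Of the 29 photoreceptor and cone cell genes 6 were higher in Canton S and 0 lower, with a median difference of 0.34; beside gl and sev, sens differed by 0.78 (adjusted p = 0.0096) and ro by 0.73 (adjusted p = 0.0129, and 0.0671 without Canton S replicate 1). elav (0.79, adjusted p = 0.0693), chp (0.39, adjusted p = 0.204) and boss (0.25, adjusted p = 0.186) did not pass. Of 30 DNA replication genes 0 were higher and 23 lower, with a median of -0.93: PCNA lay between 12.02 and 12.98 in the mutant arrays, with a difference of -1.04 ± 0.17 (adjusted p = 0.00269). Of 26 mitosis genes 0 were higher and 11 lower. Blood cell genes went the other way, with 9 of 25 higher, 0 lower and a median difference of 0.50. Hml lay between 7.24 and 7.81 in the mutants (2.03 ± 0.19, adjusted p = 7.48e-05), and eater between 5.60 and 6.97 (2.42 ± 0.24, adjusted p = 0.000107). The mean of the blood cell list was 9.17, 9.35 and 8.91 in the Canton S arrays and 8.21 to 8.61 in the mutant arrays. In Toll and Imd signalling 1 of 15 genes was higher and 0 lower, and in the Hippo, proteasome and junction lists 0 members passed in either direction by limma, with 3, 0 and 1 at an unadjusted p under 0.05.

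The largest differences of named genes came to nearly 3 on the log2 scale in both directions. Mec2 (2.96 ± 0.35 SE, adjusted p = 0.0003), Cpr47Eb (2.92 ± 0.26), fat-spondin (2.80 ± 0.27), the serpin gene Spn47C (2.80 ± 0.50), Glt (2.70 ± 0.12), the co-chaperone gene stv (2.42 ± 0.18) and Gal (2.34 ± 0.28), which encodes a beta-galactosidase, were higher in Canton S without overlap. stv was at 9.67, 10.15 and 9.57 in Canton S and between 6.84 and 7.70 in the mutants. Among the lower genes, LBR, the lamin B receptor gene, was at 7.84, 7.61 and 8.19 in Canton S and between 10.49 and 10.86 in the mutants (-2.82 ± 0.12). The zinc finger gene jim was at 11.01, 10.97 and 11.03 against 13.04 to 13.41 (-2.28 ± 0.06), but only by 1 of its 3 probe sets: the other two differed by -0.21 (adjusted p = 0.681) and -0.08 (adjusted p = 0.901). Tektin-C (-2.80 ± 0.11), tut (-2.19 ± 0.22) and Hsc70-2 (-2.14 ± 0.17) were near background in Canton S and overlapped with some mutant arrays. retinin (-2.24 ± 0.38), rpk (-2.17 ± 0.20) and Rbm13 (-2.12 ± 0.13) were lower without overlap.

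**Figure D5:**
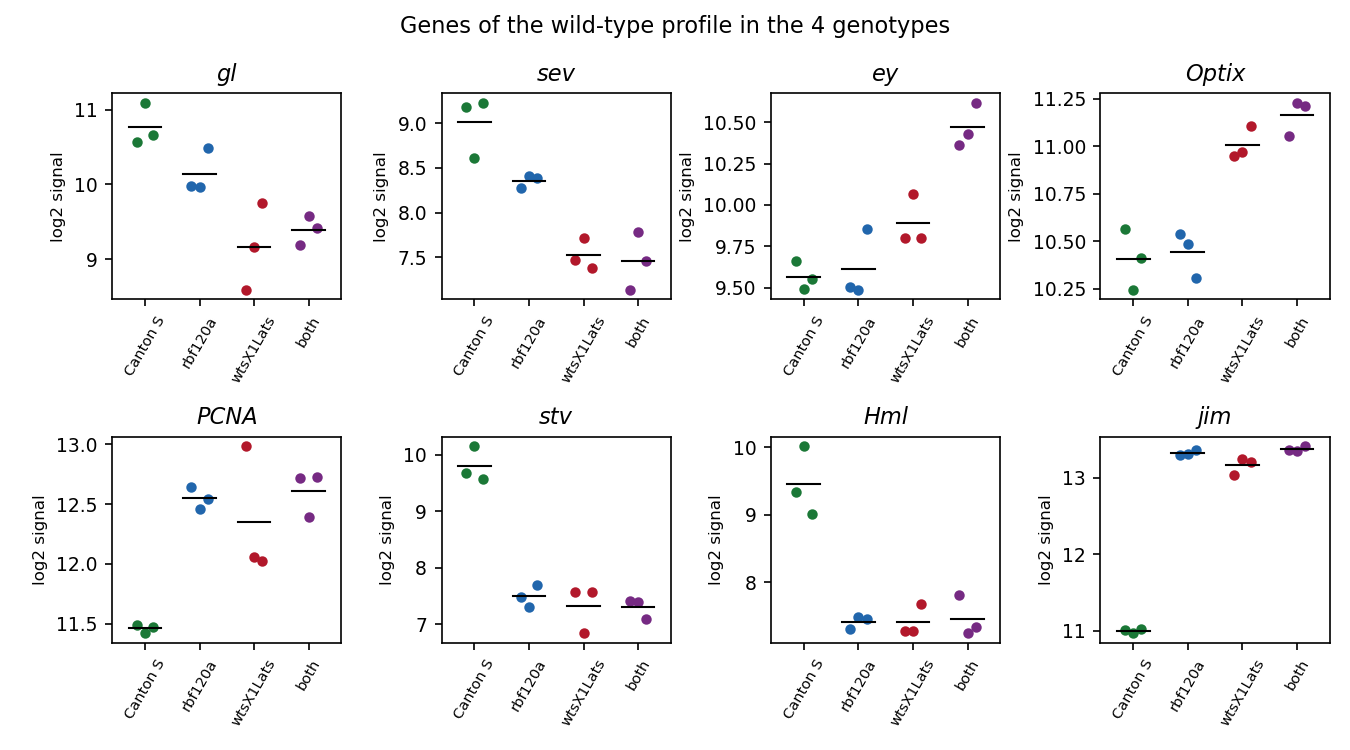
Log2 signal of 8 genes in the 3 arrays of each genotype (points) with the group mean (black bar); "both" is rbf120a wtsX1Lats, and each panel has its own axis, which does not start at 0. gl, sev, stv and Hml lie higher in Canton S than in all mutant arrays, PCNA and the probe set used for jim lie lower, and ey and Optix overlap with rbf120a.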

How the data were processed

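Biotin-labelled cRNA from 6 ug of total RNA, extracted with Trizol and purified on RNeasy columns per the labels' protocols, was hybridised to 12 Affymetrix arrays. The authors deposited 1 table of log2 values covering 18952 probe sets. Their range (3.55 to 14.53) shows the log2 scale, and the summary and normalization methods are not given in the sources used here. Array medians lay between 5.76 and 5.86. Of the probe sets, 183 were controls, 13646 carried 1 gene, 402 several and 4721 none; 13543 were matched to a gene table (Release 6 plus ISO1 MT). Where a gene had several probe sets, the one whose 12-array mean was highest stood for it. Levels are means ± SD over 3 arrays. The comparison with the mutants used R 4.3.3 and limma 3.58.1 (lmFit, then eBayes with trend, 4 group means, 8 residual degrees of freedom, Benjamini-Hochberg over 11981 genes), checked on simulated data. The number of arrays limits the precision. Members, lists and the rule for named genes were chosen with earlier results of these data known. By that rule the genes named are drawn from the 20 highest genes, gl, sev, ey and Optix, the 4 highest and 2 lowest members of each list, the 10 most variable genes, the genes at the band limits, and in the comparison the 8 largest differences each way and up to 4 members per list. Listed genes without a single-gene probe set, and promoter and protein sequences, were not analysed here. Alternatives covered the ceiling, the probe set, the summary over arrays, the limit of the high band, the scaling, the filter on low values, the replicate block and leaving out each array.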

Additional observations from a re-analysis of the deposited data

Results flagged for a closer look

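Probe sets outside the gene ranking also carried signal. Of 4721 probe sets that the annotation ties to no gene, 1327 (28.1%) were above the background ceiling in Canton S and 256 reached the limit of the high band. Of 402 probe sets listed with several genes, 257 (63.9%) were above the ceiling and 31 reached the limit of the high band. These signals belong to no named gene here, and the ranking leaves them out. With 3 arrays in each group, no test for outlying arrays was made.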

How the results depend on the processing

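The count of genes near background stayed within 1.5 times of 4126 under each alternative but 1: a ceiling from 27 bacterial control probe sets, which themselves ran from 3.76 to 10.20, lay at 9.97 and put 9576 genes below it. A ceiling from the testis and sperm list lay at 7.03 and put 5656 genes at or below it. Genes with signals between 5.49 and 7.03, such as boss (6.49) and Med (6.13), are thus above background only by the ceiling used here. The limit of the high band, 10.87, became 10.77 with the mean of all probe sets of a gene, 9.97 with the top 20% of genes and 11.65 with the top 5%, and lay between 10.86 and 10.89 when a Canton S array was left out. The median gene signal, 7.46, became 7.26 with the mean of all probe sets.

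The 807 calls against the mutants became 524 with Canton S and rbf120a alone and 181 with Canton S and wtsX1Lats alone, both from fewer arrays, and 392 to 1281 when 1 array was left out. Centring each array on its median left 48.8% of 779 calls higher in Canton S, against 54.3%. Of 83 named calls, 28 were lost without some array. Tektin-C reversed with Canton S and rbf120a alone (0.0053). Same-number deviations correlated above 0.1 in 6 of 18 cases, including all 3 between rbf120a and wtsX1Lats (0.217, 0.301 and 0.216), but with no mutant group did all 3 Canton S arrays do so, so the numbers were not taken to pair Canton S with the mutants; with the replicate block 803 genes passed, 738 of them shared, and 3 named calls were lost. The planned promoter motifs and protein lengths were not run.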
